A study of Rattus norvegicus with 60 samples.

Results

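A set of 6 genes of the pain-sensing neuron and of neurotrophin signalling were followed in the rat dorsal root ganglion, the paired cluster beside the spinal cord that holds the cell bodies of sensory neurons together with satellite glia and Schwann cells. They are Trpv1 (ENSRNOG00000019486), Scn9a (ENSRNOG00000006639), Calca (ENSRNOG00000011130), Bdnf (ENSRNOG00000047466), Ngfr (ENSRNOG00000005392) and Ntrk2 (ENSRNOG00000018839). The genes were chosen by their Ensembl identifiers, and 6 of 6 were found among the 23918 identifiers in the mRNA files. The files hold identifiers without names. The names used here are those given with the identifiers when the genes were chosen, since the reference table used here pairs 0 of the 23918 identifiers with a symbol.

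The study compared SD rats that were injected under the skin of 1 foot with 0.1 mL of complete Freund's adjuvant (CFA), killed mycobacteria in oil that set off a lasting local inflammation, with rats given no treatment. Each group had 10 mRNA libraries made from ganglion tissue. The series title places the work in inflammation-induced hyperalgesia and names the transcription factor AP-1. The labels give neither the sex and age of the rats, the time from injection to dissection, nor the side or spinal level of the ganglia. They also do not say whether a library holds the ganglia of 1 rat. The p-values thus judge differences and correlations against the spread between these libraries, which need not be the spread between rats.

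Nociceptors, the sensory neurons that respond to damaging stimuli, detect heat and chemicals with ion channels, fire through voltage-gated sodium channels and release peptides at their endings. Target tissues and neurons supply neurotrophins, which bind Trk receptor kinases and the shared receptor p75, and which set the survival and sensitivity of these neurons. In inflamed skin, nerve growth factor is the classical signal that raises the sensitivity of nociceptors, and Bdnf and Calca are known as genes that it can induce.

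Trpv1 encodes the channel opened by capsaicin, heat and acid. Scn9a encodes Nav1.7, the sodium channel that amplifies small depolarisations in nociceptors. Calca encodes the calcitonin gene-related peptide CGRP and, by alternative splicing, calcitonin. Bdnf encodes brain-derived neurotrophic factor, Ntrk2 its receptor TrkB, and Ngfr the p75 receptor that binds all neurotrophins and is also made by glia. A count per gene cannot separate CGRP from calcitonin transcripts, the full-length from the truncated TrkB transcripts, or the transcripts from the separate Bdnf start sites.

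Because the series title names AP-1, the 250 bases before each annotated start of the 6 genes were searched in the RefSeq promoter table (build GRCr8), in which 4 of the 6 genes have entries. Ngfr and Ntrk2 are named only. The search covered both strands for the AP-1 element TGAGTCA, its loose form TGANTCA, which includes the first, the CRE core TGACG and the GC box GGGCGG. The element TGAGTCA was found at 0 of the 9 starts of Trpv1, Scn9a, Calca and Bdnf, and in 4.05% of the 33469 starts in the table. The loose form, present at 6.34% of all starts, occurred at 1 of the 6 Bdnf starts as TGAATCA. The CRE core, present at 18.2% of all starts, occurred at the Calca start and at another Bdnf start. The GC box, present at 30.5% of all starts, occurred at the Bdnf start with TGAATCA. The windows that hold a match are printed 5' to 3' on the gene's strand with the matches in capitals, and the Scn9a window, which has no match, is shown as the promoter of the 1 gene of the correlated pair described further on that the table holds. The Calca window was shortened to the 191 bases before the outermost annotated start.
Calca, chr1:178317589-178317779, minus strand: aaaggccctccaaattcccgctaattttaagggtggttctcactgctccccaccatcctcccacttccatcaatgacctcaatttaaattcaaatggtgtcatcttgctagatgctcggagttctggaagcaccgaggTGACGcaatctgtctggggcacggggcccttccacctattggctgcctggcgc
Bdnf, chr3:116621721-116621970, plus strand: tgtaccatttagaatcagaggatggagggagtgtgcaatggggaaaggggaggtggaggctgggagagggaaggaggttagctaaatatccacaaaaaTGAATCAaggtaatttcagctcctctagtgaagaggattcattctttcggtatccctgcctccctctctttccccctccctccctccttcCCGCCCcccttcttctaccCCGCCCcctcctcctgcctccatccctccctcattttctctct
Bdnf, chr3:116637608-116637857, plus strand: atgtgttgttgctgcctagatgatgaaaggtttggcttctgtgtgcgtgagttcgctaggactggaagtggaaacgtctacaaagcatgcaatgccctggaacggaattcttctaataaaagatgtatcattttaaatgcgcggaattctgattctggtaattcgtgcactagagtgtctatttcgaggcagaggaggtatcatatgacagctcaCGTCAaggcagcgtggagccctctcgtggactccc
Scn9a, chr3:71701378-71701627, minus strand: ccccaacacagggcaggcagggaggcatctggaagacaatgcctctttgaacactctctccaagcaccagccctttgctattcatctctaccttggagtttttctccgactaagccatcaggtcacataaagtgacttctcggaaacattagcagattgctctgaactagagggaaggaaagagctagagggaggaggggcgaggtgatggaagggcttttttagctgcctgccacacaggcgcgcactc
A match of letters in these windows is a description of the sequence, and its absence says nothing of binding elsewhere.

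Depth lay between 15607906 and 21611397 counts per library, and the mean was 16669493 for controls (SD 1087471) and 18535076 for CFA (SD 1595060), over 10 libraries each. All 6 genes passed the filter on low counts, and each had at least 338 counts in every library. Of the other marker lists prepared for sensory neurons, glia, blood and muscle, 0 could be matched to identifiers, so the ganglion label was not checked by markers. The 6 genes were all read in 20 of 20 libraries, which by itself does not test the tissue. In whole tissue, fewer cells of a type and less RNA per cell cannot be told apart. CFA 3 and control 10 lay farthest out on the first principal component of the 5000 most variable genes, at 96.4 and 57.1, against a range of -38.1 to 32.9 for the other 18 libraries. This component took up 41.0% of the variance. The most alike libraries of a group, CFA 6 and CFA 7, had a chi-square per degree of freedom of 9.63, where counting noise alone gives about 1, so no library was taken as a repeat deposit of another. This does not show that each came from a separate rat, and each was counted as 1 sample as the labels list them.

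The first comparison asked whether the 6 genes differed between inflamed and untreated rats. After Benjamini-Hochberg adjustment over 15124 genes, none of them passed the quasi-likelihood test of edgeR (0 of 6, adjusted p = 1.00 for each), where 0.0331% of all genes tested passed. None had an unadjusted edgeR p under 0.05 either, which 2.08% of all genes had, and DESeq2 called 0 of 6. The groups overlapped for 6 of 6 genes, as they did for all but 0.0331% of the genes tested. A miss of the threshold does not show that the levels were equal. The intervals show what size of change these libraries leave possible, and for all 6 genes the 95% interval lay within 1.5-fold in both directions, as it did for 80.1% of all genes tested. The median log2 fold change was 0.036 over the 6 genes and 0.015 over all genes tested. Levels are given in CPM, counts relative to library size scaled by TMM factors, and folds are CFA over control.

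Among the channels, Trpv1 had its lowest, median and highest control levels at 78.2, 112 and 139 CPM, and its CFA levels at 78.9, 109 and 148 CPM. The ranges nearly coincided, with control 5 and CFA 3 at the bottom and CFA 2 and control 1 at the top. The means were 111 ± 15.9 CPM in controls and 111 ± 17.9 CPM in CFA (SD, n = 10 each), a fold of 0.994 with a 95% interval of 0.864 to 1.14 (log2 fold change -0.0090, SE 0.097, edgeR adjusted p = 1.00).

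Scn9a spanned 286 to 598 CPM in controls with a median of 483 CPM, and 244 to 700 CPM in CFA with a median of 481 CPM. Both the highest library, CFA 1, and the lowest, CFA 3, belonged to CFA, and the lowest control was control 10. The means were 470.1 ± 86.4 and 474 ± 126 CPM (SD, n = 10 each), a fold of 1.01 with a 95% interval of 0.814 to 1.25 (log2 fold change 0.013, SE 0.15, edgeR adjusted p = 1.00).

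Calca, the peptide gene of the group, spanned 551 to 1288 CPM in controls with a median of 750.2 CPM, and 600.0 to 1188 CPM in CFA with a median of 812 CPM. All CFA libraries lay inside the range of the controls. A single library stood high in each group, control 1 at 1288 CPM and CFA 3 at 1188 CPM, while the other 18 libraries lay between 551 and 960 CPM. The means were 812 ± 211 and 814 ± 161 CPM (SD, n = 10 each), a fold of 1.00 with a 95% interval of 0.824 to 1.22 (log2 fold change 0.0032, SE 0.14, edgeR adjusted p = 1.00). The labels do not say how reads shared with the closely related gene Calcb were counted.

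**Figure D1:**
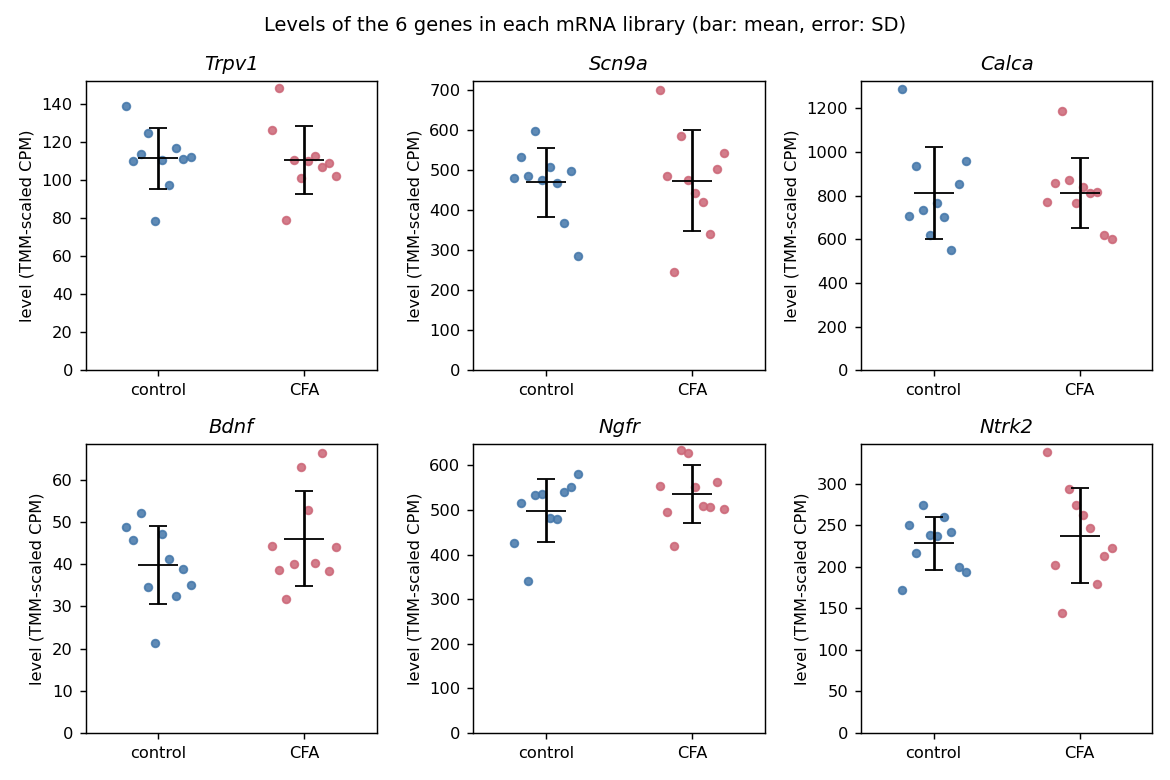
Level of each gene (TMM-scaled CPM, axis from 0) in the 10 control and 10 CFA mRNA libraries, 1 point per library in order of its number, with the mean as a bar and the SD as the error. The groups overlap in every panel, and Bdnf has 2 CFA libraries, at 63.2 and 66.4 CPM, that stand clear of the highest control at 52.3 CPM.

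Of the neurotrophin genes, the ligand Bdnf had the highest fold of the 6 genes and the lowest counts. Its lowest, median and highest levels were 21.4, 40.0 and 52.3 CPM in controls and 31.7, 42.3 and 66.4 CPM in CFA. CFA 8, CFA 5 and CFA 6, at 66.4, 63.2 and 52.8 CPM, lay above every control, CFA 6 by a small margin, and control 5 lay below all others. The means were 39.8 ± 9.27 and 46.0 ± 11.3 CPM (SD, n = 10 each), a fold of 1.16 with a 95% interval of 0.934 to 1.44 (log2 fold change 0.21, SE 0.15, edgeR unadjusted p = 0.171 and adjusted p = 1.00). Bdnf ranked 1309 of 15124 genes by p.

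The value for Bdnf moved with a few libraries. Without CFA 8 its log2 fold change was 0.14, and without control 5 it was also 0.14. Without CFA 3 and controls 1, 3 and 10 together it was 0.36 (SE 0.16, edgeR unadjusted p = 0.0395, adjusted p = 1.00). Controls 3 and 1 had the highest Bdnf levels of the controls, at 52.3 and 48.9 CPM. CFA 3 had the lowest of CFA, at 31.7 CPM, so leaving these libraries out raises the fold by itself. Control 10, at 35.1 CPM, goes the other way. With sample quality weights in limma the log2 fold change was 0.32 (unadjusted p = 0.0345, adjusted p = 0.723). An unadjusted p under 0.05 was also more common over all genes in both settings. Without CFA 3 and controls 1, 3 and 10 it was found for 581 of 15312 genes, and with the weights for 957 of 15124. In the main edgeR fit it was found for 314 of 15124. The log2 fold change of Bdnf was above 0 under all 30 alternatives and was called under 0 of them.

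The receptor gene Ntrk2 spanned 172 to 275 CPM in controls with a median of 238 CPM, and 144 to 339 CPM in CFA with a median of 235 CPM. CFA 1 and CFA 4 lay above every control and CFA 3 below every control, so that the spread of CFA reached past that of the controls on both sides. The means were 228 ± 32.3 and 238 ± 57.4 CPM (SD, n = 10 each), a fold of 1.04 with a 95% interval of 0.869 to 1.25 (log2 fold change 0.058, SE 0.12, edgeR adjusted p = 1.00).

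Ngfr spanned 340.1 to 580 CPM in controls with a median of 525 CPM, and 418 to 634 CPM in CFA with a median of 529 CPM. CFA 4 and CFA 5 lay above every control, and control 3 below all other libraries. The means were 499 ± 70.6 and 536 ± 64.4 CPM (SD, n = 10 each), a fold of 1.07 with a 95% interval of 0.946 to 1.22 (log2 fold change 0.10, SE 0.088, edgeR adjusted p = 1.00). The log2 fold change stayed between 0.054 and 0.14 when single libraries were left out.

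**Figure D2:**
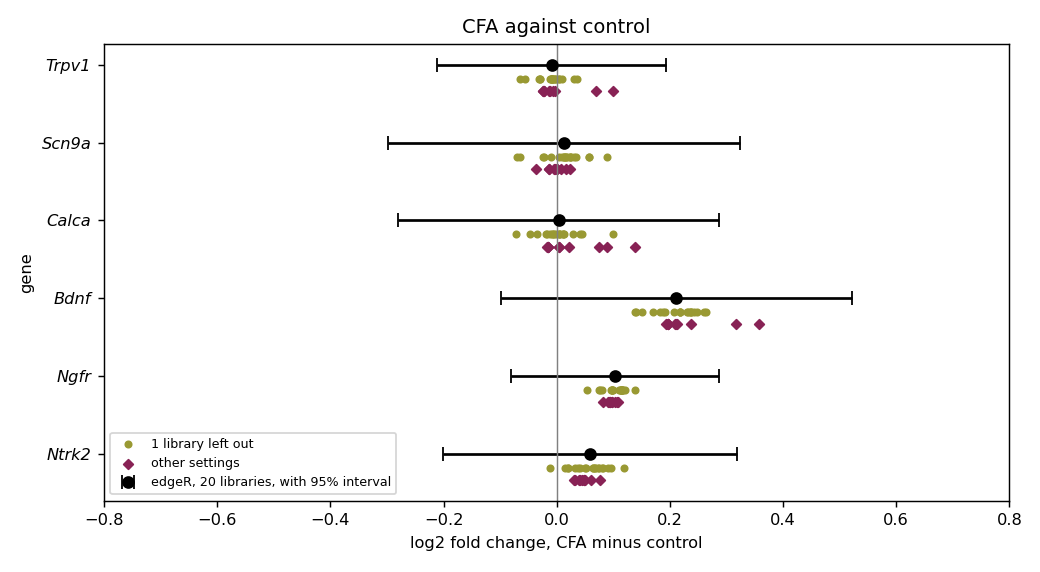
Log2 fold change of each gene, CFA minus control. Black points are edgeR estimates from 20 libraries with their 95% interval, small points the estimates with 1 library left out, and diamonds the other settings. Every interval includes 0, and the estimates of Bdnf and Ngfr lie above 0 throughout while those of Trpv1, Scn9a and Calca fall on both sides.

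The genes differed in how much they varied between libraries of a group. The coefficient of variation was 14.2% in controls and 16.2% in CFA for Trpv1, and 14.2% and 12.0% for Ngfr. Calca and Bdnf varied more in both groups, at 26.0% and 19.7% for Calca and at 23.3% and 24.5% for Bdnf. For Scn9a and Ntrk2 the coefficient was larger in CFA, at 18.4% in controls and 26.6% in CFA for Scn9a and 14.1% and 24.1% for Ntrk2, a difference that was not tested. Against the 1000 genes nearest in level, the biological coefficient of variation estimated by edgeR was higher than that of 81.4% for Scn9a, 81.5% for Bdnf, 76.5% for Calca, 72.1% for Ntrk2, 56.6% for Trpv1 and 46.1% for Ngfr.

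The second comparison asked which of the 6 genes varied together across the 20 libraries. Of 15 pairs, 1 passed a two-sided permutation test of Pearson's r of log2 CPM after Benjamini-Hochberg adjustment over the pairs. This was Scn9a and Ntrk2, the sodium channel and the TrkB receptor (r = 0.72, permutation p = 0.00045, adjusted p = 0.00675, n = 20). By rank the relation was weaker, with Spearman's rho of 0.48 (permutation p = 0.0324, adjusted p = 0.345). With group means removed r was 0.72. Within controls r was 0.40 (permutation p = 0.257, adjusted p = 0.546) and within CFA 0.86 (permutation p = 0.00178, adjusted p = 0.0267), and the difference between the groups was not tested.

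The pair rested in part on CFA 3, which had the lowest level of both genes, at 244 CPM for Scn9a and 144 CPM for Ntrk2. Without CFA 3 r was 0.58 (adjusted permutation p = 0.130), and without CFA 3 and control 10, the libraries farthest from the median of Scn9a, it was 0.55 (permutation p = 0.0195 before adjustment, 0.292 after). CFA 1 lay at the other end, with the highest level of both genes, at 700.4 and 339 CPM. A correlation of this size was common in these libraries: 24.0% of all other genes tested were at least as strongly correlated with Scn9a in either direction, and 23.9% with Ntrk2. Ntrk2 was number 2448 among the 15123 other genes in likeness to Scn9a.

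Calca had r values below 0 with 3 of the other genes. Its r with Ntrk2 was -0.52 (permutation p = 0.0180, adjusted p = 0.130; rho = -0.42, permutation p = 0.0689), with Ngfr -0.42 (permutation p = 0.0700) and with Scn9a -0.35 (permutation p = 0.133). None of these 3 passed the adjustment. Calca and Ntrk2 were most opposed within controls, at r = -0.81 (permutation p = 0.00353, adjusted p = 0.0530), and stood at -0.38 within CFA. Calca and Scn9a stood at -0.051 within controls and at -0.65 within CFA (permutation p = 0.05125, adjusted p = 0.1537). These differences between the groups were not tested. Without CFA 3 and controls 1, 3 and 10, the r of Calca with Ntrk2, Ngfr and Scn9a turned to 0.043, 0.16 and 0.12. These libraries had the highest Calca levels, at 1188, 1288, 936 and 960 CPM in that order, so leaving them out narrows the range of Calca.

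The receptor genes Ngfr and Ntrk2 had an r of 0.50 over all libraries (permutation p = 0.0260, adjusted p = 0.130; rho = 0.45, permutation p = 0.0469), which did not pass. With single libraries left out it ranged from 0.40 without CFA 3 (adjusted permutation p = 0.339) to 0.62 without control 3, the 1 such fit in which the pair passed (adjusted permutation p = 0.0353). It was 0.42 without CFA 3 and controls 1, 3 and 10 (adjusted permutation p = 0.481). It was 0.21 within controls and 0.80 within CFA (permutation p = 0.00673, adjusted p = 0.0505), and neither passed. The ligand Bdnf and its receptor Ntrk2 showed an r of 0.066 (permutation p = 0.782), and Bdnf and Ngfr one of -0.094 (permutation p = 0.683). The channels Trpv1 and Scn9a had an r of 0.40 (permutation p = 0.0794, adjusted p = 0.238), and one of 0.14 without CFA 3, a library low in both. Trpv1 and Calca, both genes of peptide-containing nociceptors, had an r of 0.17 (permutation p = 0.480), with 0.58 within controls and -0.32 within CFA.

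None of the r values of Bdnf passed the adjustment over 20 libraries. Its r with Trpv1 was 0.35 (permutation p = 0.130), 0.65 within controls and 0.084 within CFA, and it was -0.27 without control 5 and CFA 3, the libraries with the lowest Trpv1. Its r with Calca was 0.22 (permutation p = 0.342), with 0.57 within controls and -0.29 within CFA. Its r with Ngfr was -0.63 within controls and 0.44 within CFA. These differences between the groups were not tested.

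**Figure D3:**
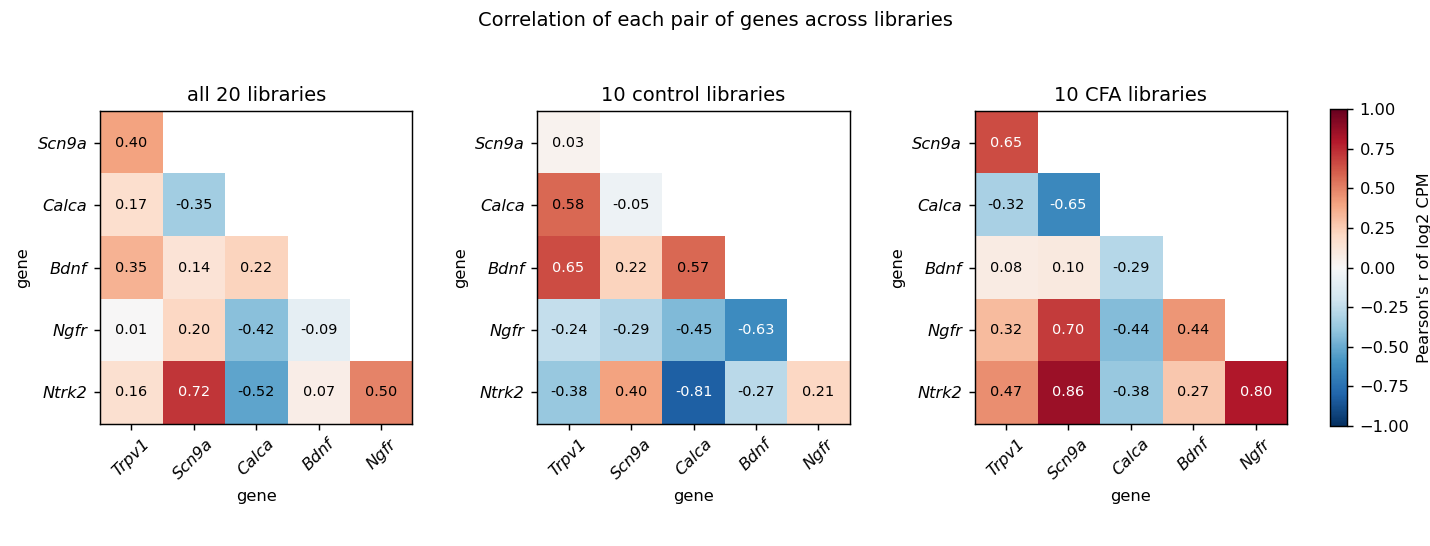
Pearson's r of log2 CPM for each of the 15 pairs of genes over all 20 mRNA libraries, the 10 controls and the 10 CFA libraries, with the colour scale from -1 to 1. Scn9a and Ntrk2 have the highest r over all libraries at 0.72, and Calca has negative values with Scn9a, Ngfr and Ntrk2 in each panel.

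Scn9a, Ntrk2 and Calca were correlated with the main axis along which all libraries differed, as were many genes: 57.5% of the genes tested had an r of at least 0.5 with it in either direction. Over 12 relations of the 6 genes with the first principal component and with the total count, r with the component was -0.90 for Scn9a and -0.85 for Ntrk2 (for both, permutation p = 1e-05, the smallest that the resamples can give, and adjusted p = 6e-05; rho = -0.75 and -0.81). An r at least as large in either direction was found for 10.1% of the other genes in the case of Scn9a and for 17.5% in that of Ntrk2. Without CFA 3 and control 10, the libraries farthest out, r was -0.74 and -0.81. Within controls and CFA it was -0.83 and -0.93 for Scn9a, and -0.78 and -0.88 for Ntrk2. For Calca r was 0.60 (permutation p = 0.00582, adjusted p = 0.0233; rho = 0.54, adjusted p = 0.0626) and 0.38 without the same libraries, and 47.2% of the other genes were at least as strongly correlated with the component. Trpv1, Bdnf and Ngfr had r of -0.26, -0.090 and -0.43 with the component (adjusted permutation p = 0.405, 0.752 and 0.190). Within controls and CFA r was 0.21 and -0.55 for Trpv1, 0.13 and -0.27 for Bdnf, and -0.024 and -0.86 for Ngfr. Without CFA 3 and control 10 it was 0.20 for Trpv1, 0.31 for Bdnf and -0.55 for Ngfr. No test was run on these within-group and left-out values. With the total count, r lay between -0.16 for Calca and 0.28 for Ntrk2, and 0 of 6 passed (adjusted permutation p between 0.405 and 0.824). The component is built from genes of the same libraries, and the 6 genes were not taken out beforehand. A member may thus be part of the axis it is set against, so the p-values with the component do not come from an independent measure. What the component stands for was not tested.

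**Figure D4:**
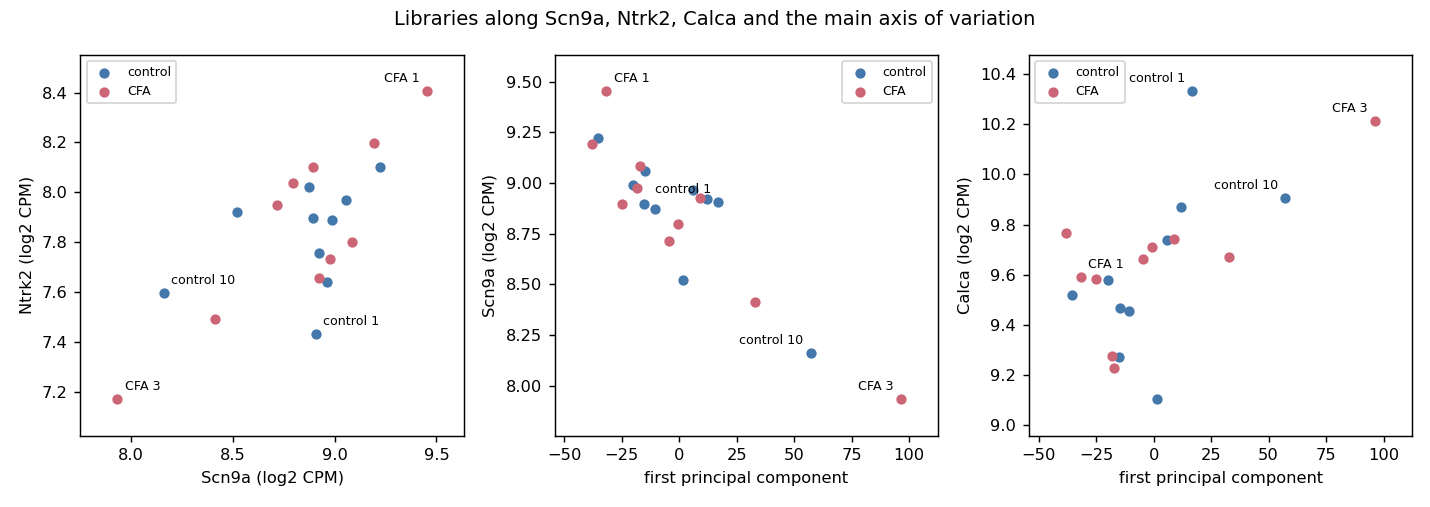
Left, log2 CPM of Ntrk2 against Scn9a. Middle and right, log2 CPM of Scn9a and of Calca against the first principal component of the 5000 most variable genes, with 1 point per library. CFA 3 and control 10 lie at the far end of the component, at 96.4 and 57.1, where Scn9a is lowest, at 244 and 286 CPM.

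The genes also differed in how many others they followed. An r of at least 0.5 in either direction over the 20 libraries was found with 52.4% of all other genes tested for Scn9a, 51.5% for Ntrk2, 42.1% for Calca and 24.9% for Ngfr. For Trpv1 it was 6.36% and for Bdnf 1.75%, the lowest shares of the 6. With group means removed, the 3 genes most like each member reached an r of 0.97 for Scn9a, between 0.95 and 0.96 for Ntrk2, between 0.93 and 0.94 for Ngfr, between 0.83 and 0.91 for Trpv1, between 0.89 and 0.90 for Calca and between 0.74 and 0.77 for Bdnf. None of these 18 genes was another member. They have identifiers without names, and the closest to Scn9a and to Bdnf were ENSRNOG00000002736 (r = 0.97) and ENSRNOG00000045752 (r = 0.77).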

How the data were processed

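The deposited mRNA files hold raw counts per Ensembl gene, per the file headers, with 1 file per library and 15607906 to 21611397 counts in each. Poly-A RNA was selected and made into libraries with NEBNext Ultra reagents, per the labels' protocols. The submitters' processing notes list the aligner STAR 2.7.0, DESeq2 1.29.0 and cutadapt 2.1.0 among other tools, and the build rn4, with no role for each. How reads were assigned to genes, and whether strand was used, is not stated there.

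Libraries were grouped by the labels as 10 control and 10 CFA. Counts were tested over all genes with edgeR 4.0.16 under R 4.3.3, using TMM factors, the filterByExpr filter and the robust quasi-likelihood F test, and p-values were adjusted by Benjamini-Hochberg at 0.05. The SE is the log2 fold change divided by the root of F, and 95% intervals use it. Log2 CPM used a prior count of 2. Correlations were tested by two-sided permutation with 100000 resamples (numpy 2.4.6). The main edgeR fit and the permutation test were also run on simulated data, with outcomes not given here, and the other methods were not.

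The members, the lists and the alternatives were chosen with earlier results of these data known, and the motifs were chosen after seeing the data. The text names the 6 members, and gives the r of the 3 genes most like each without naming them. Of these 18 only 2 identifiers are printed. The 5 gene lists and 11 marker lists fixed by symbol were not analysed here, as 0 identifiers could be matched. Alternatives were RLE and upper-quartile factors, DESeq2 1.42.0, sample quality weights in limma 3.58.1, no filter or at least 1 CPM in 10 libraries, the replicate number as a block, 1 surrogate variable from sva 3.50.0, and left-out libraries. For correlations they were a prior count of 0.5, rank values and single groups. Small RNA and bisulfite files were not used here.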

Additional observations from a re-analysis of the deposited data

Results flagged for a closer look

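Calca in CFA 3, at 1188 CPM, stood apart from the other 9 CFA libraries, which lay between 600.0 and 870 CPM. The gap to the next library, in CPM, was 0.541 of the whole range of the group, above Dixon's critical value for 10 libraries. The mark depended on the scale. In log2 CPM, the scale of the correlations, CFA 3 stood at 10.2139, the next library, CFA 4, at 9.765 and the lowest, CFA 10, at 9.229. On that scale the gap was a smaller part of the range and did not reach the critical value. Of 12 groups of values screened in CPM, 6 genes in controls and in CFA, 1 was marked, and chance marks about 1 in 20. CFA 3 also had the lowest level of Scn9a and Ntrk2 of all 20 libraries and lay farthest out on the first principal component. Its part in these results beyond the values without it was not tested.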

How the results depend on the processing

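None of the 6 genes was called under any of the 30 alternatives. Bdnf and Ngfr kept their direction in all 30, and Ntrk2 in 29. The sign of the other 3 genes, whose log2 fold changes are near 0, depended on the setting. Trpv1 stood at 0.069 with sample quality weights and 0.099 without CFA 3 and controls 1, 3 and 10. Scn9a stood at -0.00030 with RLE factors, -0.0045 with upper-quartile factors, -0.00031 with DESeq2, -0.0034 with the stricter filter, -0.014 with 1 surrogate variable, -0.036 without CFA 9 and CFA 10 and -0.013 with the replicate block. Calca stood at -0.015 with RLE factors and with DESeq2, -0.016 with upper-quartile factors and -0.017 with the stricter filter. With single libraries left out, the log2 fold changes ranged from -0.065 to 0.036 for Trpv1, -0.069 to 0.089 for Scn9a, -0.073 to 0.10 for Calca and -0.012 to 0.12 for Ntrk2. The cause of these shifts was not tested.

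The replicate numbers shared by the groups were looked at as possible pairs. Same-numbered libraries deviated together with r between -0.36 and 0.56, over 0.1 in 3 of 10 pairs. For 3 of 10 controls, the CFA library with the most similar deviations was that of the same number. The labels do not state that a shared number marks a pair, so the main fit did not use it. Whether it marks a pair or a batch was not tested. With the replicate block 2 genes of all tested were called in place of 5, and 0 members. With sample quality weights 9 genes were called, and with single libraries left out 5 to 6. Of 15 pairs of members, 1 passed over 20 libraries, but 0 passed within controls, 0 by rank, 0 without CFA 3 and controls 1, 3 and 10, and 0 without the 2 libraries farthest from the median of the first gene. With single libraries left out, 0 to 2 passed.

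Pairs that did not pass changed sign as follows. Within controls r was -0.24 for Trpv1 and Ngfr, -0.38 for Trpv1 and Ntrk2, -0.29 for Scn9a and Ngfr and -0.27 for Bdnf and Ntrk2. Within CFA it was -0.32 for Trpv1 and Calca, -0.29 for Calca and Bdnf and 0.44 for Bdnf and Ngfr. By rank it was 0 for Trpv1 and Bdnf and -0.018 for Trpv1 and Ngfr. Without CFA 3 and controls 1, 3 and 10 it was -0.073 for Trpv1 and Ngfr, 0.12 for Scn9a and Calca, -0.16 for Scn9a and Bdnf, 0.16 for Calca and Ngfr, 0.043 for Calca and Ntrk2, 0.068 for Bdnf and Ngfr and -0.057 for Bdnf and Ntrk2. Without the 2 libraries farthest from the median of the first gene it was -0.27 for Trpv1 and Bdnf, -0.22 for Trpv1 and Ngfr, -0.19 for Trpv1 and Ntrk2, 0.062 for Scn9a and Calca and -0.16 for Scn9a and Bdnf. With single libraries left out, r ranged from -0.035 to 0.51 for Trpv1 and Calca, -0.20 to 0.13 for Trpv1 and Ngfr, -0.16 to 0.32 for Trpv1 and Ntrk2, -0.021 to 0.30 for Scn9a and Bdnf, -0.26 to 0.068 for Bdnf and Ngfr and -0.087 to 0.22 for Bdnf and Ntrk2.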
